A study of Schizosaccharomyces pombe with 6 samples.

Results

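The genes described here are those that encode the proteins of the small subunit of the fission yeast (Schizosaccharomyces pombe) cytosolic ribosome. They were chosen by name, as the nuclear protein-coding genes whose standard symbol starts with rps and a digit. The count tables hold 55 of them among 7269 features, 43 of which have counts and 12 of which are listed at 0 in every library. RNA-seq libraries came from vegetative haploid cells of 2 genotypes, with 3 libraries each, labelled as biological replicates. One genotype is wt and the other, called the mutant here, joins the sad1.2 allele to a deletion of csi1 (sad1.2 csi1Δ). Sad1 is an inner nuclear membrane protein at the spindle pole body and Csi1 helps to hold centromeres to it, and the study asked how centromere declustering touches gene expression in growing cells. All cultures were asynchronous, held 30 mL of rich medium at 30 °C and were taken in exponential growth at an optical density of 0.5, with no further treatment named. Each library was made from 5 µg of total RNA by oligo-dT selection.

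The small (40S) subunit binds the mRNA, scans to the start codon and checks codon against anticodon, with its proteins wrapped around the 18S ribosomal RNA. In yeasts many ribosomal proteins are encoded by duplicated genes with nearly the same product, and the fission yeast symbols number the copies 01 and 02. Transcription of these genes follows growth rate and nutrient signalling through the TORC1 kinase and is reduced in stressed cells, which is why they are often read as a growth readout. Proteins are also given below by their universal names, in which u marks families shared with bacteria and e those of eukaryotes.

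Names, lengths, introns, GC content, cover, promoter windows and sequence likeness were taken from the RefSeq annotation of assembly ASM294v3. It places 28 rps genes on chromosome I, 20 on II and 7 on III. In it 24 have no intron and 31 have at least 1, up to 3. They form 31 protein families, of which 23 have a pair of copies, and the rps4 family has a further copy, rps403. The copies of uS12 are named rps23 and rps2302. Products of 8 pairs are identical, and the lowest identity is 79.9%, between rps001 and rps002 (uS2), whose proteins have 292 and 287 residues. Among the pairs reported singly, coding sequences match at 74.0% (rps1201 and rps1202) to 93.6% (rps1401 and rps1402) of aligned positions. The longest stretch that the mRNAs of such a pair share without a mismatch is 14 bases for rps2601 and rps2602 and 101 bases for rps1401 and rps1402. How the authors' counting treated reads that fit both copies is not given in the sources used here, so values of copies are less certain the longer that stretch is.

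The genes listed at 0 have no usable level, and each lies, wholly or in part, under another counted feature on the opposite strand. They include rps902 (uS4), rps1202 (eS12), rps1401 (uS11), rps1601 (uS9), rps20 (uS10), rps23 (uS12), rps2601 and rps2602 (eS26), rps2802 (eS28) and rps3002 (eS30). In 10 of these 12 genes the other feature covers the whole gene span, from the start to the end of the transcript with introns. Cover was 93.5% for rps20, under the non-coding RNA SPNCRNA.1261, and 50.2% for rps3002, under the coding gene abz2. The covering feature was a non-coding RNA in 5 cases and a coding gene in 7. Among the 43 counted genes, 32 had no cover on either strand and 11 had it in part, 8 of them on the opposite strand and 3 on the same strand only. The cover of these genes reached 18.8% in rps3, where it lies on both strands. With cover on either strand counted, all coding genes split in a like way, since 1.79% of 2179 without cover, 5.28% of 2540 covered in part and 92.2% of 387 covered in full were at 0 in every library.

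Of the 3 families that had no counted copy at all, uS10 and eS26 are reported singly. uS10 is a head protein near the mRNA entry, and eS26 sits at the mRNA exit. The features above the 12 genes did not hold counts of ribosomal protein size either. The coding gene SPAC1805.10 over rps2602 had 1279, 1182 and 1132 counts in wt against 1575, 1361 and 1444 in the mutant. Over rps1202, pmp1 had counts of 233, 309 and 265 in wt against 319, 302 and 409 in the mutant. The highest count of any covering feature in a library was 1992, whereas the lowest count of a counted rps gene was 5959, and 1 of the 12, SPNCRNA.1465 over rps1601, was itself at 0. Expression of these 12 genes was therefore not measured by the tables, and sums over rps genes leave them out.

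**Figure D1:**
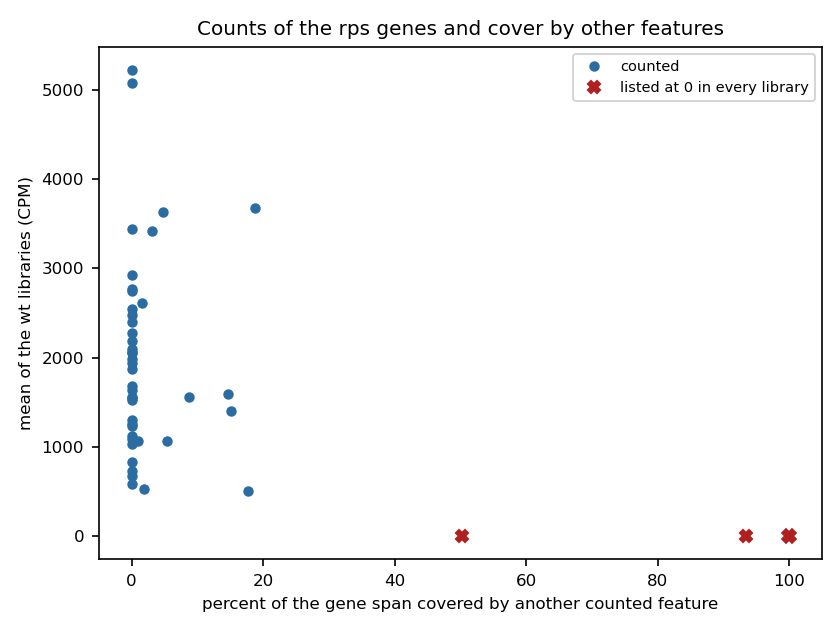
Mean of the wt libraries in CPM (vertical axis) against the percent of the gene span that another counted feature covers on either strand (horizontal axis), with 1 point per rps gene. The 43 counted genes lie at or below 18.8% cover, and the 12 genes listed at 0, drawn as crosses, lie at 50.2% or more; 10 of the crosses overlie each other at full cover.

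Levels were compared between genes as CPM per kb of mRNA. CPM is the count scaled to a common library size, here after the TMM method. The 43 counted genes were among the most abundant coding transcripts in wt cells. Their median was 2715 CPM per kb, against 47.4 over the 4352 tested coding genes. Of these genes 33 were among the top 100 coding genes and 43 among the top 200, with the lowest at rank 194. The range from lowest to highest was 7.99-fold and the quartiles were 2067 and 3451 CPM per kb. Summed over copies, the 21 families with every copy counted ran from 2034 CPM per kb for uS14 (rps29 alone) to 8386 for eS1 (rps101 and rps102), a 4.12-fold range.

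The highest gene was rps7, which encodes eS7 of the subunit body, at 6488 ± 1152 CPM per kb in wt (SD, n = 3). It was followed by rps13 (uS15, an early-binding protein of the central domain) at 5791 ± 1589 and rps102 (eS1, at the platform) at 5690 ± 1013 CPM per kb. Within libraries rps7 was above rps13 and rps102 in 6 of 6, whereas rps13 was above rps102 in 4 of 6, so the order of the latter pair is not resolved. The lowest were rps2202 (uS8), at 812 ± 108 CPM per kb, rps3001 (eS30) at 1086 ± 306 and rps1902 (eS19) at 1105 ± 196. Of these, rps1902 was above rps2202 in 6 of 6 libraries, while rps3001 was above rps2202 in 4 and below rps1902 in 2. All 3 are members of pairs whose other copy was either higher or listed at 0. Features on the opposite strand cover 17.6% of the span of rps3001 and 1.88% of that of rps2202. The part of such cover in the levels was not tested.

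**Figure D2:**
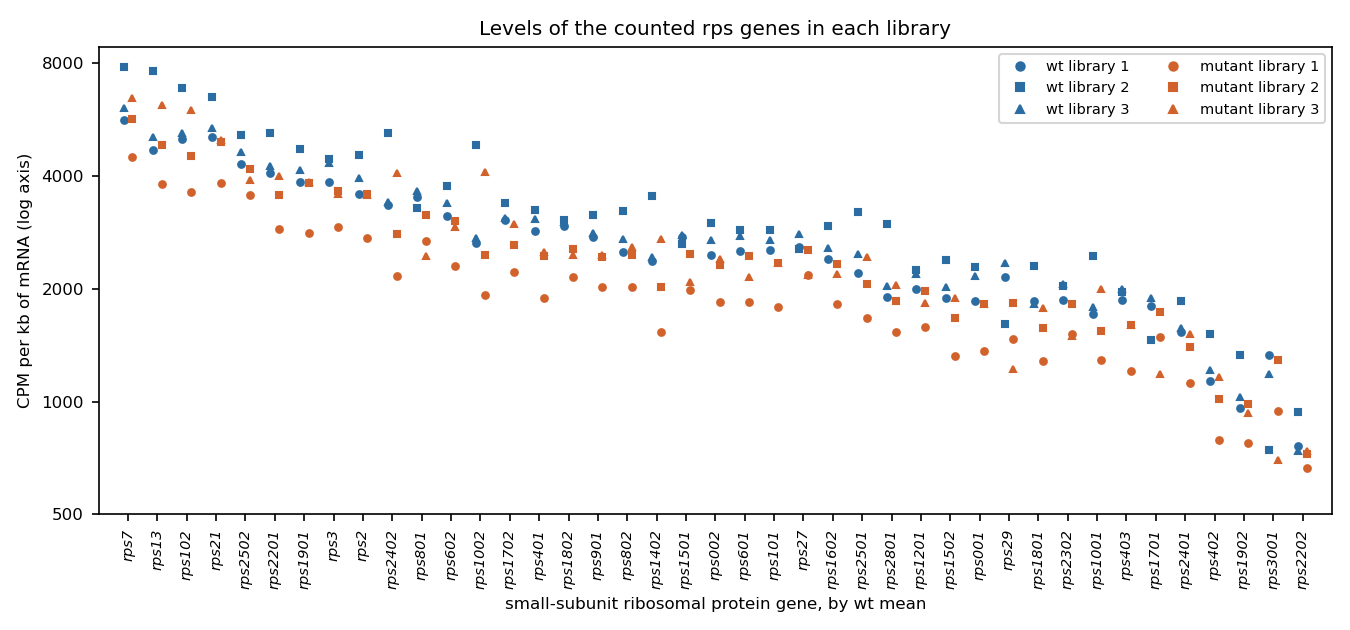
CPM per kb of mRNA on a log axis for 41 of the 43 counted rps genes, ordered by the wt mean, with 1 point per library (blue for wt, orange for the mutant, and a symbol for each replicate number). Levels run from 6488 CPM per kb in wt for rps7 to 812 for rps2202, and mutant library 1 is the lowest point for 35 of the genes drawn.

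Every counted rps gene had a lower estimate in the mutant than in wt, by a similar and small amount, and none passed the test by itself. All 43 genes had a value below 0 on the log2 scale, and the median fold change there was -0.32, which is a 19.6% lower level. They ran from -0.43 for rps29 to -0.15 for rps3001, with quartiles of -0.35 and -0.27. The median over all 4941 tested genes was 0.00 and 49.3% of them were below 0. In bulk RNA, fewer cells expressing a gene and less RNA per cell cannot be told apart, and neither can be told apart here from a larger share of other transcripts.

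In edgeR's quasi-likelihood test, 0 of the 43 genes passed an adjusted p under 0.05, against 0.121% of all tested genes called lower. Their lowest adjusted p (Benjamini-Hochberg) was 0.144, for rps1802, and 11 had an unadjusted p under 0.05, as 22.6% of all tested genes did in either direction. The median SE of the log2 fold changes was 0.148. In 27 of the 43 genes every mutant library lay below every wt library, which holds for 13.8% of all tested genes. The 43 genes are not independent, since they share libraries and deviate together.

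DESeq2 called 5 genes lower (3.08% of all tested genes), among them rps1802, rps401, rps403 and rps901, and limma voom called 0 (0.0607% of all tested genes were lower). In the authors' deposited table, 4 rps genes had an adjusted p under 0.05 (2.54% of its genes were lower at that threshold). They included rps1802, rps401 and rps403 in the authors' deposited table, where the log2 fold change is negative for all 43 genes (median -0.30).

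The libraries themselves differed by amounts near the size of the genotype difference. Set against the wt mean, the median log2 deviation over the rps genes was -0.13, 0.14 and -0.03 in wt libraries 1, 2 and 3. It was -0.56, -0.21 and -0.20 in mutant libraries 1, 2 and 3. Mutant library 1 stood lowest, being the lowest of all libraries in 37 of the 43 genes, and without it the median log2 fold change of the rps genes was -0.23.

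**Figure D3:**
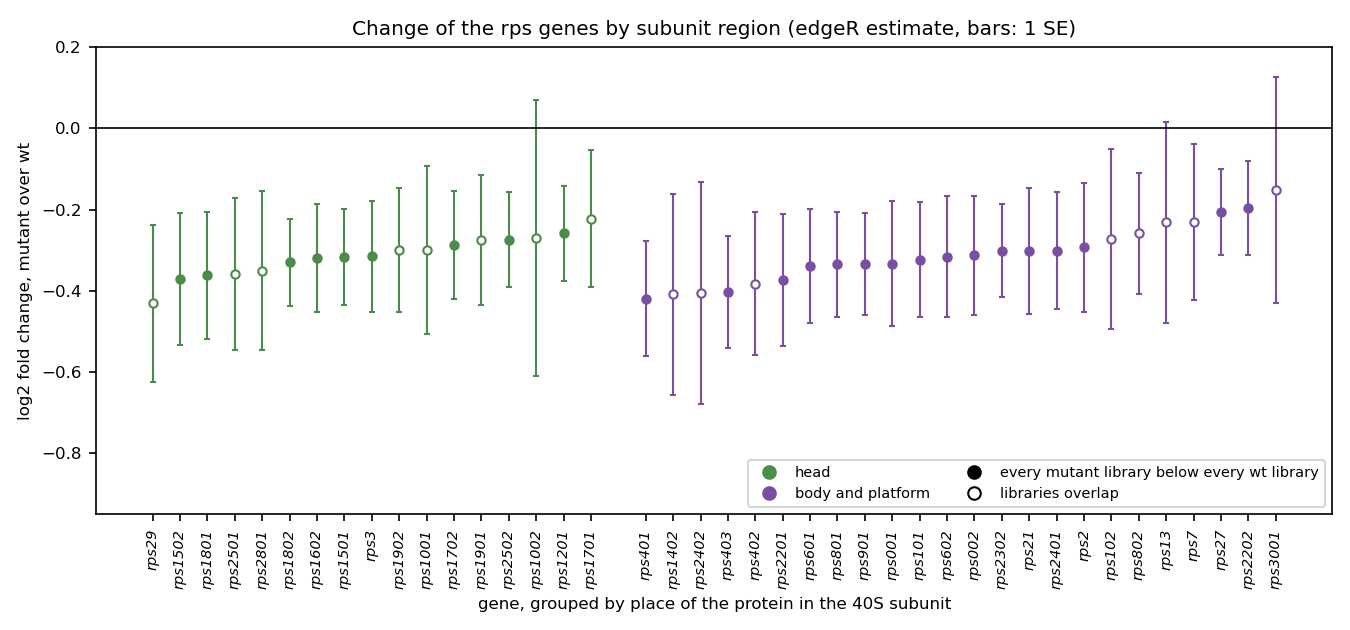
Log2 fold change, mutant over wt (vertical axis, edgeR estimate), of 41 of the 43 counted rps genes, with bars of 1 SE, grouped by the place of the protein in the head or in the body and platform of the 40S subunit. All points lie below 0, between -0.43 and -0.15, and filled points mark the 25 of these genes in which every mutant library is below every wt library.

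Members of the head and of the body and platform had alike values. Of 23 head genes 19 were counted, with a median log2 fold change of -0.32 and a range of -0.43 to -0.22. Of 32 genes of the body and platform 24 were counted, with a median of -0.31 and a range of -0.42 to -0.15. The mutant libraries all lay under the lowest wt library in 11 head genes and in 16 of the others, set against the 13.8% of all tested genes given above. The assignment to head or body rests on textbook structures of the eukaryotic ribosome.

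At the mRNA entry, uS3 and uS5 line the channel through which the message is threaded. For rps3 (uS3), 3381, 3887 and 3777 CPM were measured in wt against 2556, 3195 and 3126 CPM in the mutant. The genotypes did not overlap, and the log2 fold change was -0.32 ± 0.136 (SE, with an adjusted p of 0.227 in edgeR). For rps2 (uS5), the target of the arginine methyltransferase Rmt3, the values were 3235, 4088 and 3567 CPM in wt against 2456, 3229 and 3204 CPM in the mutant. Its highest mutant library was just under its lowest wt library, with a log2 fold change of -0.29 ± 0.159 (SE, with an adjusted p of 0.325 in edgeR).

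At the mRNA exit and the tRNA exit site, uS11 and eS28 contact the message upstream of the decoded codon. The counted uS11 gene, rps1402, had the third lowest log2 fold change, -0.41 ± 0.247 (SE, with an adjusted p of 0.377 in edgeR). The estimate was -0.21 without wt library 2 and -0.43 without both wt library 2 and mutant library 3. The gene was at 1357, 2030.3 and 1392 CPM in wt against 881, 1158 and 1561 CPM in the mutant, so that mutant library 3 lay above wt libraries 1 and 3. For rps2801 (eS28), whose other copy is listed at 0, the values were 599, 938 and 642 CPM in wt against 482, 583 and 645 CPM in the mutant. Mutant library 3 lay just above wt library 3, and the log2 fold change was -0.35 ± 0.196 (SE, with an adjusted p of 0.341 in edgeR). The estimate was -0.14 without wt library 2 and -0.22 without both wt library 2 and mutant library 3.

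The eS6 protein is the substrate that S6 kinases phosphorylate when TORC1 is active. Its genes rps601 and rps602 were at 3196, 3642 and 3504 CPM and at 2529, 3052 and 2740.4 CPM in wt. In the mutant they were at 2346, 3099 and 2728 CPM and at 1859, 2459.6 and 2369 CPM. Neither copy overlapped between genotypes, and the log2 fold changes were -0.34 ± 0.14 and -0.32 ± 0.148 (SE, with adjusted p-values of 0.213 and 0.261 in edgeR).

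The lowest estimate of all belonged to rps29, which encodes the zinc-binding head protein uS14. It was at 708, 528 and 772 CPM in wt against 484, 603 and 402 CPM in the mutant, with a log2 fold change of -0.43 ± 0.193 (SE, with an adjusted p of 0.242 in edgeR). Wt library 2 and mutant library 3 were the low ones of their genotypes, and mutant library 2 lay above wt library 2. The second lowest was rps401 (eS4, in the body), with 2562, 2912 and 2762 CPM in wt against 1705, 2206 and 2249.9 CPM in the mutant. These did not overlap, and the log2 fold change was -0.42 ± 0.142 (SE, with an adjusted p of 0.154 in edgeR). The other eS4 copies had log2 fold changes of -0.38 (rps402) and -0.40 (rps403), so the whole family stood at the low end.

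At the other end were rps27, rps2202 and rps3001. The rps27 gene (eS27, a zinc-binding protein of the body) was at 1091, 1076 and 1182 CPM in wt against 920.3, 1068 and 917 CPM in the mutant. Its libraries did not overlap but nearly touched, with a log2 fold change of -0.21 ± 0.106 (SE, with an adjusted p of 0.302 in edgeR). For rps3001 (eS30, in human made as a fusion to a ubiquitin-like protein) 611, 341 and 541 CPM were measured in wt against 432, 591 and 319.8 CPM in the mutant. These overlap widely, and the log2 fold change was -0.15 ± 0.278 (SE, with an adjusted p of 0.791 in edgeR). Its sign depended on single libraries, with values of 0.02 without wt library 1 and 0.04 without mutant library 3. Without both wt library 2 and mutant library 3 the log2 fold change was -0.17, and mutant library 3 against wt library 2 gave -0.09.

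The most abundant genes had log2 fold changes with SEs above the median of the group. For rps7, 4399, 6103 and 4738 CPM were measured in wt against 3518, 4428 and 5044 CPM in the mutant, with a log2 fold change of -0.23 ± 0.191 (SE, with an adjusted p of 0.529 in edgeR). For rps13 the values were 2775, 4499.6 and 2992 CPM in wt against 2242, 2861 and 3646 CPM in the mutant, and for rps102 they were 4611, 6294 and 4766 CPM and 3328, 4145 and 5509 CPM. In all 3 genes mutant library 3 was above wt libraries 1 and 3. The log2 fold change of rps13 was -0.23 ± 0.247 and that of rps102 was -0.27 ± 0.221 (SE, with adjusted p-values of 0.635 and 0.521 in edgeR), and without wt library 2 the values of rps7, rps13 and rps102 were -0.09, 0.00 and -0.13. Without both wt library 2 and mutant library 3 these values were -0.20, -0.18 and -0.33.

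Paralogue pairs were compared by the log2 ratio of their CPM per kb within a library, which does not depend on library scaling. Both copies were counted in 14 of the 23 pairs, 1 copy in 7 and neither in 2, of which rps26 is one. The direction of the imbalance seldom varied between libraries. In 13 of the 14 pairs the same copy was higher per kb in all 6 libraries, the first in 5 pairs and the second in 8. This order rests on the annotated mRNA lengths as well as on the counts. In CPM without length, rps601 (1270 bases) was above rps602 (811 bases) in every library, the reverse of their order per kb. In CPM rps1001 was above rps1002 in wt library 1 (1344 against 1308) and below it in wt library 2 (1917 against 2391). The levels of the copies differed over 2-fold in wt in 5 pairs.

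The most unequal pair was rps2201 and rps2202, whose products (uS8, a central-domain protein) are identical. The log2 ratio was 2.42, 2.47 and 2.52 in wt against 2.12, 2.29 and 2.44 in the mutant, so rps2201 was 5.55-fold higher in wt. The ratios overlapped in mutant library 3. In CPM, rps2201 was at 1860.0, 2367 and 1934 in wt against 1312, 1619 and 1825 in the mutant, and rps2202 at 496, 610.4 and 482 in wt against 433, 473 and 481 in the mutant. Neither copy overlapped between genotypes, and the log2 fold changes were -0.37 ± 0.162 and -0.20 ± 0.116 (SE, with adjusted p-values of 0.228 and 0.368 in edgeR). Without wt library 2 that of rps2202 was -0.09, and without both wt library 2 and mutant library 3 it was -0.11.

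The next were rps1901 and rps1902, which encode eS19, a head protein needed for subunit maturation. Their log2 ratio was 2.00, 1.82 and 2.02 in wt against 1.86, 1.96 and 2.05 in the mutant, a 3.86-fold difference in wt. The genotypes were interleaved, and the log2 fold changes were -0.27 for rps1901 and -0.30 for rps1902. For rps401 and rps402 the log2 ratio was 1.32, 1.10 and 1.34 in wt against 1.26, 1.27 and 1.11 in the mutant, a 2.38-fold difference in wt. Wt library 2 and mutant library 3 gave the lowest ratios.

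In the remaining pairs with over 2-fold difference the second copy was the higher one. The log2 ratio of rps2401 to rps2402 (eS24) was -1.12, -1.48 and -1.11 in wt against -0.95, -0.996 and -1.42 in the mutant. That of rps101 to rps102 (eS1) was -0.99, -1.26 and -0.95 in wt against -1.02, -0.95 and -1.36 in the mutant. Here too wt library 2 and mutant library 3 stood apart from the other libraries of their genotype, by more than the genotypes differed.

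The most even pairs were rps801 and rps802 (eS8), rps601 and rps602 (eS6), and rps001 and rps002 (uS2), with folds of 1.24, 1.26 and 1.29 in wt. The eS8 pair was the one whose order per kb changed between libraries. Its log2 ratio was 0.48, 0.03 and 0.43 in wt against 0.41, 0.36 and -0.08 in the mutant, so the copies were about equal in wt library 2 and mutant library 3. The uS2 pair, least alike in protein, had one of the steadiest ratios, at -0.41, -0.39 and -0.32 in wt against -0.43, -0.35 and -0.40 in the mutant. Among these examples, the most unequal pair makes identical proteins and the least alike pair was nearly even.

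**Figure D4:**
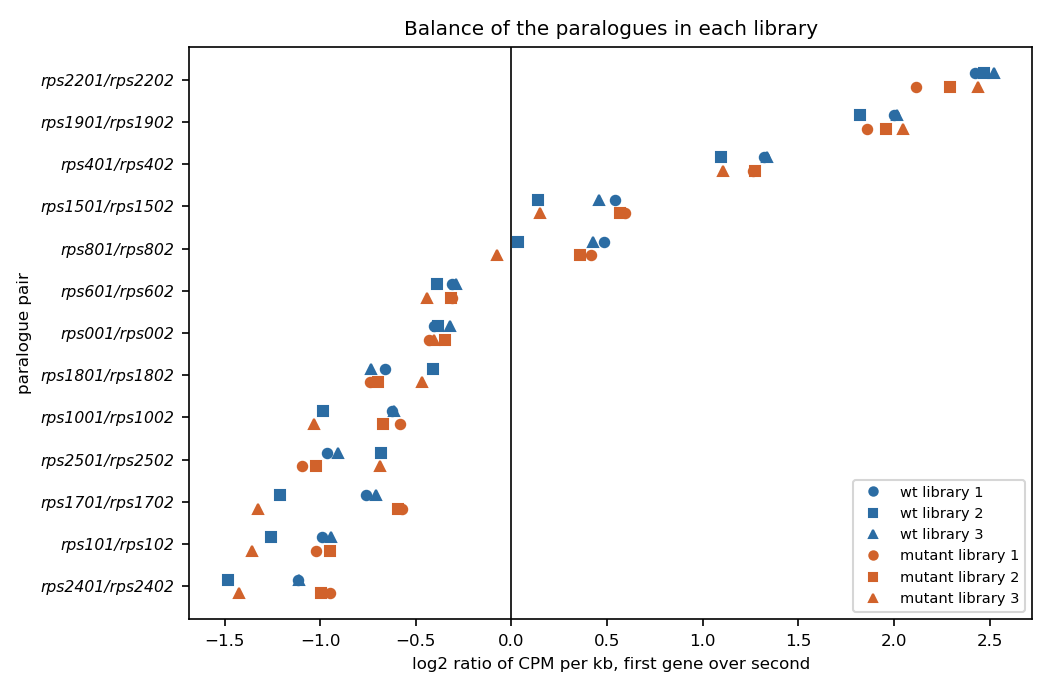
Log2 ratio of CPM per kb, first over second copy, in each library for 13 of the 14 pairs with both copies counted (blue for wt, orange for the mutant, and a symbol for each replicate number). Ratios run from about -1.48 for rps2401 and rps2402 to 2.52 for rps2201 and rps2202, and within a pair wt library 2 and mutant library 3 often lie together, apart from the other libraries.

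No change in the balance of copies between genotypes was detected. The ratios overlapped between genotypes in 14 of 14 pairs. The median size of the change in the mean log2 ratio was 0.0416, and the largest was -0.19 for rps2201 and rps2202. An exact two-sided permutation test over libraries gave p = 0.2 for that pair (0.764 after Benjamini-Hochberg adjustment over the 14 pairs), where the smallest p that 3 against 3 allows is 0.1. The following pairs were rps2401 and rps2402, with a change of 0.11, and rps2501 and rps2502 (eS25), with -0.08, each at an exact permutation p = 0.5. For rps2501 the CPM were 695, 1014 and 781 in wt against 527, 651 and 765 in the mutant, and for rps2502 1399, 1679 and 1509 in wt against 1159.7, 1363 and 1272 in the mutant.

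The larger movement of the ratios was between libraries of the same genotype, although the measures differ. A shift of a single library from the mean of 2 others varies more than a difference between means of 3. It therefore tends to be larger even where no library stands apart. The median size of the shift of wt library 2 from the mean of the other wt libraries was 0.27, and that of mutant library 3 from the other mutant libraries was 0.31. The shift of wt library 2 exceeded the genotype difference in 13 of the 14 pairs and had the sign of the shift of mutant library 3 in 12. The column headers of the deposited files write the RNA amount of these 2 libraries as ug and that of the other 4 as µg. Nothing in the labels says what the spelling stands for, and its part in the results was not tested beyond the values given here. Without these 2 libraries, with 2 left in each genotype, the ratios of 9 of the 14 pairs did not overlap, but with 2 against 2 the smallest exact permutation p is 0.333, so that no pair can pass a test. The change for rps2201 and rps2202 was -0.27, and that for rps1901 and rps1902 was -0.10 in place of 0.01.

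The same libraries deviated together in the levels of single genes. Over the 43 genes, wt library 2 differed from the mean of the other wt libraries by -0.76 to 0.85 on the log2 scale. Mutant library 3 differed from the other mutant libraries by -0.68 to 0.90. The deviations had the same sign in 42 genes, and their Pearson correlation over the 43 genes was 0.93, given as a description, since all points share the same libraries. In wt library 2 the largest upward deviations were those of rps1002 (eS10), rps13 and rps2402. In mutant library 3 they were those of rps1002, rps2402 and rps1402. The largest downward deviations in both libraries were those of rps3001, rps29 and rps1701 (eS17). The deviations correlated with the GC content of the mRNA at 0.51 in both genotypes and with its length at 0.01 in wt and 0.12 in the mutant.

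**Figure D5:**
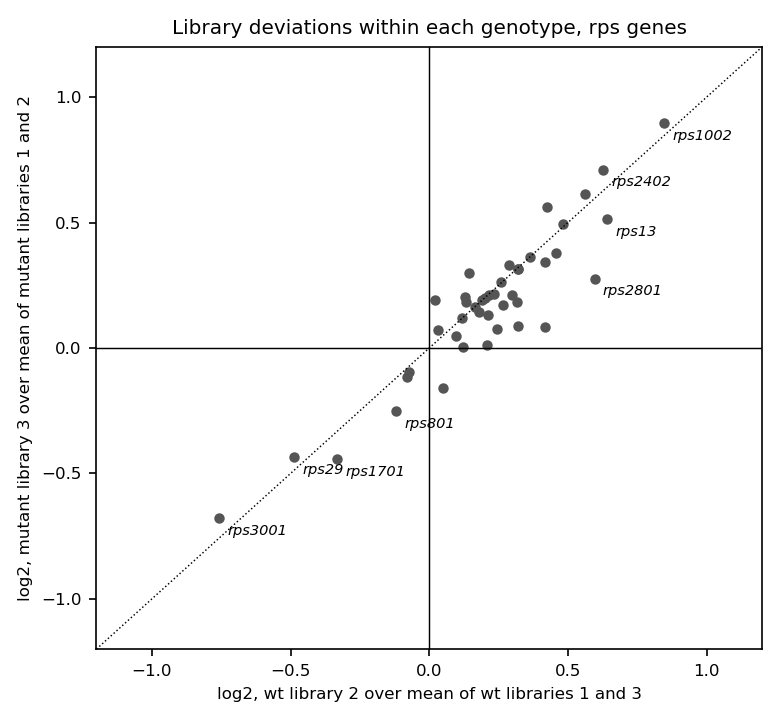
Log2 deviation of wt library 2 from the mean of wt libraries 1 and 3 (horizontal axis) against that of mutant library 3 from the mean of mutant libraries 1 and 2 (vertical axis), with 1 point per counted rps gene and a dotted line of equal values. Points run along the line from rps3001, at -0.76 and -0.68, to rps1002, at 0.85 and 0.90.

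The rps estimates were lower in the mutant both between the 2 libraries spelled ug and among the others. This split was chosen after the data were seen. The ug comparison has 1 library of each genotype, so differences between libraries and between genotypes cannot be told apart in it. In mutant library 3 against wt library 2, all 43 genes were lower, with a median of -0.34, where 49.8% of all tested genes were. In mutant libraries 1 and 2 against wt libraries 1 and 3, the median was -0.30 and 39 genes did not overlap, against 33.8% of all tested genes lower in this way. With the header spelling as a second term of the edgeR model, chosen after the data were seen, 10 rps genes were called lower, where 8.82% of all tested genes were. They included rps29, rps1801, rps1402, rps2402, rps2501, rps402, rps401, rps2201 and rps1502, and the median over the 43 genes was -0.31. In edgeR without these 2 libraries 0 rps genes were called where 6.17% of all tested genes were called lower. Of the rps genes 10 then had an unadjusted p under 0.05, where 38.9% of all tested genes did in either direction, the lowest adjusted p was 0.0521 for rps29, and the median was -0.31.

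As a share of all counts, the rps genes made up 7.68%, 8.72% and 7.96% in wt against 6.50%, 7.36% and 7.46% in the mutant. Every mutant library lay below every wt library, with means of 8.12% ± 0.537 and 7.11% ± 0.526 (SD, n = 3). The difference of -1.02 percentage points had an exact two-sided permutation p = 0.1, the smallest this design allows. Large-subunit genes (rpl and rpp) made up 10.7% in wt and 9.27% in the mutant on average (exact permutation p = 0.1). The ratio of small-subunit to large-subunit counts was 0.756 ± 0.0345 in wt and 0.766 ± 0.0215 in the mutant (SD, n = 3; exact permutation p = 0.7).

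Other genes of translation stood in the same direction to different degrees, and none was called in edgeR. The 73 tested large-subunit genes had a median log2 fold change of -0.33, with 72 below 0 and 41 whose mutant libraries all lay under the lowest wt library (13.8% of all tested genes). The 26 tested initiation factor genes had a median of -0.26, with 26 below 0. The 51 mitochondrial ribosomal protein genes had -0.12, with 41 below 0. For the 48 tested 40S assembly factor genes the median was -0.15 with 37 below 0, and it was -0.00 without the 2 libraries of the other header spelling (wt library 2 and mutant library 3). At an unadjusted p under 0.05 edgeR held 31, 8, 7 and 10 genes of these 4 lists, and DESeq2 called 15, 4, 3 and 5. Over all tested genes in either direction these shares were 22.6% and 10.4%, and the counts of the mitochondrial list are below both. For the 40S assembly factors the edgeR count is below its share and the DESeq2 count is at about its share. Abundant coding genes that encode no cytosolic ribosomal protein (269 genes at 500 CPM or more) had a median of -0.18, with 214 below 0, 79 whose mutant libraries all lay under the lowest wt library, and 4 called higher (2.29% of all tested genes). Those of smallest adjusted p were adg2, cdc22 and cts2, with log2 fold changes of 1.03, 1.03 and 1.27 (adjusted p of 0.0107 each in edgeR).

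The 40S components outside the rps names had values like those of the rps genes. The scaffold protein gene cpc2, the RACK1 of fission yeast, was at 2053, 3067 and 2244 CPM in wt against 1421, 1987 and 2672 CPM in the mutant. These overlap, with a log2 fold change of -0.28 ± 0.257 (SE, with an adjusted p of 0.578 in edgeR). The median over cpc2, ubi3 and ubi5, where the ubi genes encode eS31 fused to ubiquitin, was -0.31.

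Genes of the TORC1 pathway and known regulators had a median of 0.05 over 20 tested genes, with 7 below 0, 13 above 0 and 0 called in edgeR (4 at an unadjusted p under 0.05, and 1 called in DESeq2). The last 2 counts are below the shares of all tested genes in either direction, 22.6% and 10.4%. The methyltransferase gene rmt3, named here after its values were seen, was at 266, 290.3 and 276 CPM in wt against 190.1, 239 and 228 CPM in the mutant, without overlap (-0.34 ± 0.103 SE, with an adjusted p of 0.127 in edgeR). Thus rmt3 lay below 0, unlike the genes that follow. It was 1 of the 4 genes at an unadjusted p under 0.05 in edgeR, and the others, psk1, sfp1 and sck2, lay above 0. The log2 fold changes of sfp1 and sck2, also named after their values were seen, were 0.45 ± 0.14 and 0.52 ± 0.192 (SE). Their adjusted p-values in edgeR were 0.134 and 0.173. The TORC1 kinase gene tor2 was at 209, 213 and 219 CPM in wt against 229.8, 225 and 222 CPM in the mutant, a log2 fold change of 0.08 ± 0.0678 (SE, with an adjusted p of 0.543 in edgeR). The S6 kinase gene psk1 was at 137, 135 and 141 CPM in wt against 161, 158 and 157 CPM in the mutant, without overlap (0.21 ± 0.067 SE, with an adjusted p of 0.143 in edgeR). The forkhead gene fhl1, whose budding yeast counterpart regulates ribosomal protein genes, was at 88.6, 116 and 98.5 CPM in wt against 99.3, 108 and 134 CPM in the mutant, with overlap (0.18 ± 0.145 SE, with an adjusted p of 0.527 in edgeR).

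Some markers of stressed and of meiotic cells were higher in the mutant. Of 12 induced core stress genes 3 rose in edgeR, where 2.29% of all tested genes were called higher. These were zym1, a metallothionein gene, with a log2 fold change of 2.44 ± 0.284 (SE, with an adjusted p of 0.0145), tms1 with 0.92 ± 0.136 and cta3 with 1.94 ± 0.333 (adjusted p of 0.0268 and 0.0418 in edgeR). The median of the list was 0.40, and 2 members lay below 0, gpd1 at -0.09 and pyp2 at -0.01. The summed level of the stress genes was 4785 to 6929 CPM in wt and 7532 to 8250 CPM in the mutant. Of 12 meiotic and sporulation genes 4 were listed at 0 (spo6, meu14, spn5 and mde2), 7 were tested and 3 rose. These were mug5, rec10 and mek1, with log2 fold changes of 1.08 ± 0.146, 1.27 ± 0.218 and 1.47 ± 0.281 (SE, with adjusted p-values of 0.0234, 0.0418 and 0.04995 in edgeR). The summed level of the meiotic genes was 45.4 to 62.1 CPM in wt and 87.0 to 162 CPM in the mutant. The part of such cells in the rps values was not tested. Residual ribosomal RNA was 0.0123% of counts in wt and 0.0108% in the mutant.

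The promoter boxes known from fission yeast ribosomal protein genes were frequent in front of the rps genes. HomolD (CAGTCACA) and the core of HomolE (ACCCTACC) were searched on both strands from 250 bases before to 50 after the RefSeq gene start. HomolD was found in 34 of 55 rps windows (61.8%), against 2.68% of 5106 coding genes, and in 62.8% of the 86 rpl and rpp genes. These 5106 include the ribosomal protein genes themselves. Of the 137 coding genes with HomolD, 34 were rps genes and 54 were rpl or rpp genes. The HomolE core was found in 21 rps windows (38.2%), against 1.63% of coding genes. At least 1 box was found in 45 genes, both in 10 and neither in 10. Relative to the start, the first match in a window began at -85 to -43 for HomolD, with a median of -52, and at -94 to -58 for HomolE, with a median of -70. A match is a description of the letters and not of binding.

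Among the genes with neither box were rps29, rps1902 and rps002, which stood at 2034, 1105 and 2715 CPM per kb in wt. Within the unequal uS8 pair, both copies held HomolD, and the lower copy rps2202 also held HomolE. Neighbouring rps genes were rps2 with rps20, rps1402 with rps1601, and rps27 with rps29. The last of these pairs joins a value near the upper end of the range of change, -0.21 for rps27, to the lowest, -0.43 for rps29.

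Library totals ran from 19074531 to 19951875 counts. The deleted gene csi1 had 1271, 1142 and 1225 counts in wt against 210, 204 and 63 in the mutant, so it was lower in every mutant library but not at 0. It stood at 64.1, 65.3 and 63.7 CPM in wt against 9.36, 10.2 and 3.22 CPM in the mutant, and the source of the remaining counts was not tested. The sad1 gene, which carries the sad1.2 allele, had 1612, 1408 and 1610 counts in wt against 3364, 3203 and 2891 in the mutant.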

How the data were processed

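The authors deposited raw counts per annotated gene, in 1 table per library, and these were the input to every test. A further deposited table gives the authors' own log2 fold changes and adjusted p-values; it was read only where it is named. HISAT2, HTSeq and DESeq2 and the build ASM294v2 are named without versions, per the submitters' processing notes. The annotation release, the strand setting and the treatment of reads that fit several places are not stated in the labels used here, so reads of overlapping genes on opposite strands, and of near-identical copies, cannot be told apart. Normalized values per library, in 18 columns, were left unused.

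Names, lengths, introns, GC content, cover, promoter windows and the likeness of proteins and coding sequences came from RefSeq ASM294v3. Since the build differs, no coordinates or gene sequences are given. Of 7269 identifiers 6848 matched it, and 1715 features had no count in any library.

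The main test was edgeR 4.0.16 (quasi-likelihood, robust, TMM; R 4.3.3) with genotype as the only term, on the 4941 genes that filterByExpr kept (total of at least 15 and a minimum count of 10). Benjamini-Hochberg adjustment ran over all of them, with calls under 0.05. Each SE was derived from this test, as the size of the log2 fold change divided by the square root of the F statistic. CPM were computed here from the deposited counts. Pair ratios and count shares were tested by exact permutation over libraries. Alternatives were DESeq2 1.42.0, limma 3.58.1 (voom), other scalings and filters, a replicate block and each library left out. The header spelling as a term, and leaving out the 2 libraries with the other spelling, were added after the data were seen. The fit was tested on simulated data. Intervals and tests cover the spread between these libraries.

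Members, gene lists and the naming rule were chosen with earlier results of these data known. The rule gave values in full to rps genes called in edgeR (0 were), to the 3 highest and 3 lowest in level and in change, to the pairs of largest and smallest ratio and of largest change, to rps2, rps3 and the eS6, eS26 and eS28 families, to fhl1, psk1, tor2 and cpc2, and to up to 3 called genes of each other list. A few genes are not reported singly here and enter only the counts, medians and sums. The deviations of same-numbered libraries from their genotype means had correlations of 0.444, -0.493 and -0.535, so the replicate numbers were not taken as pairs. The highest such correlation between a wt and a mutant library was 0.658, for wt library 2 and mutant library 3. No 2 libraries of a genotype agreed within sampling noise (chi-square per degree of freedom 9.83 or more).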

Additional observations from a re-analysis of the deposited data

How the results depend on the processing

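Under the alternatives run, the median log2 fold change over the rps genes stayed between -0.20 (library size only) and -0.39. Library size only moved the median of all genes to 0.13, and the rps median relative to it was -0.32. Leaving out each library in turn gave a median between -0.39 and -0.23, with 41 to 43 genes below 0 and 0 rps genes called. The number of rps genes called was 0 except for 5 with DESeq2 and 10 with header spelling as a term. Called genes over the whole table, 119 in edgeR, were 76 with at least 5 CPM in 3 libraries, 36 among protein-coding genes only, 515 with DESeq2, 1105 with header spelling as a term and 1025 without the 2 libraries of that spelling. They ranged from 0 to 151 when single libraries were left out (0 on leaving out replicate 1 or 3 of wt or replicate 2 of the mutant, and 17 on leaving out mutant replicate 1). With the replicate block 0 genes were called in all and the rps median was -0.32. The cause was not tested.

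The share of counts differed by -1.24 to -0.714 points when single libraries were left out. The block gave the same difference at an exact sign-flip p = 0.25, the smallest 3 numbers allow. Pairs whose ratios did not overlap went from 0 to between 0 and 5 with single libraries left out. There were 5 without mutant replicate 3, 3 without wt replicate 2 and 9 without the 2 libraries of the other spelling. Under the block, 1 pair had differences by replicate number that were all of 1 sign. With fewer libraries the ratios of a pair separate more easily even where nothing differs. The share to expect was not computed, so these counts are a description only. In 12 of the 13 pairs reported singly the change of the log2 ratio turned sign when some single library was left out. It ranged from -0.0461 to 0.00243 for rps001/rps002, -0.14 to 0.0798 for rps101/rps102, -0.12 to 0.0152 for rps401/rps402, -0.0552 to 0.0187 for rps601/rps602, -0.22 to 0.0727 for rps801/rps802, -0.14 to 0.12 for rps1001/rps1002, -0.0646 to 0.20 for rps1501/rps1502, -0.094 to 0.31 for rps1701/rps1702, -0.12 to 0.0636 for rps1801/rps1802, -0.0541 to 0.0555 for rps1901/rps1902, -0.00863 to 0.26 for rps2401/rps2402 and -0.21 to 0.000545 for rps2501/rps2502. Without the 2 libraries the rps1901 and rps1902 change was -0.10. Among single genes, rps13 ranged from -0.43 to 0.00286 and rps3001 from -0.41 to 0.0352 when single libraries were left out. With both wt replicate 2 and mutant replicate 3 left out, they were at -0.18 and -0.17. Without mutant replicate 1 the log2 fold change of rps1901 was -0.16 and that of rps2 -0.19, and without wt replicate 2 that of rps1902 was -0.16 and that of rps2501 -0.20. Without mutant replicate 3 that of rps102 was -0.49, that of rps7 -0.36 and that of rps1402 -0.65. Without both wt replicate 2 and mutant replicate 3, rps1902 was at -0.18 and rps2501 at -0.33. In the same setting rps102 was at -0.33, rps7 at -0.20 and rps1402 at -0.43.

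Depth does not limit the counted rps genes, which have at least 5959 counts in a library; the spread between 3 libraries does.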
